A study of Mus musculus with 8 samples.

Results

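Insulin-like growth factor 1, its receptor and the binding proteins that carry it form a small gene family, followed here in mouse ventricles by the names Igf1, Igf1r, Igfbp2, Igfbp3, Igfbp4, Igfbp5, Igfbp6 and Igfbp7. Of these 8 names, 7 had a row among the 13677 genes of the deposited table, and all 7 passed the filter on low values. Igfbp2 was not analysed here. The genes were taken by name and not by any measured value, although the set was proposed with earlier results of these data known.

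Poly(A) RNA of ventricular heart tissue was sequenced in 8 libraries, which carry the names DKO (n = 3), KO (n = 2, numbered 1 and 3) and C (n = 3). The study set ventricles of Vhl-deficient mice against wild-type ones in a model whose Cre recombinase is driven by Wt1, which is active in the epicardium. The product of Vhl recognises hypoxia-inducible factors (HIF), which are then ubiquitinated and degraded. The labels spell out neither the 3 abbreviations nor the second change of DKO, and they give no age, sex or strain, no share of cells in which Cre acted and no statement that libraries come from separate animals. They state that no treatment was applied. P-values therefore measure the spread between these libraries, which may be technical.

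IGF1 is a secreted peptide that acts through the IGF1 receptor, a tyrosine kinase whose signal passes over IRS docking proteins to the PI3 kinase and AKT branch and to the RAS and MAP kinase branch. Liver releases IGF1 under growth hormone, and fibroblasts and macrophages of the heart also make it. Binding proteins hold IGFs in serum and matrix, extend their life or keep them from the receptor, and proteases release them again. IGFBP3 is the main serum carrier, IGFBP4 an inhibitor of IGF action, IGFBP5 a binding protein that also attaches to extracellular matrix, IGFBP6 a carrier that prefers IGF2, and IGFBP7 a low-affinity relative found in vessel walls.

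The stretches before the starts of Igfbp3, Igfbp5 and Igfbp7 are shown because these are the members that rose in KO, and that of Igfbp4 because it is a highly expressed member whose difference did not pass there. Each is the 250 bases before the RefSeq start on GRCm38.p6, 5′ to 3′ along the gene, with capitals on every ACGTG or GCGTG on either strand, the core letters of the site that HIF binds.
Igfbp3 (chr11:7213924-7214173, minus strand): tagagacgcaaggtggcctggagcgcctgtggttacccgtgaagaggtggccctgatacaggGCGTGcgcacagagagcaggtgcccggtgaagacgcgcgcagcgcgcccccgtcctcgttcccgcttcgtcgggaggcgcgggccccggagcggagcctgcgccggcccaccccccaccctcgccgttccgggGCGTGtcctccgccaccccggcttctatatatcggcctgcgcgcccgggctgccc
Igfbp5 (chr1:72874866-72875115, minus strand): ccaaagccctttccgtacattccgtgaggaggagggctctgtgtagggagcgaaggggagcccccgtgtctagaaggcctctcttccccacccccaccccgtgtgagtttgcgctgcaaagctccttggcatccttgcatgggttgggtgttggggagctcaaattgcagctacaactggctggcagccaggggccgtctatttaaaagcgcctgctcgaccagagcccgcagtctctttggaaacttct
Igfbp7 (chr5:77408046-77408295, minus strand): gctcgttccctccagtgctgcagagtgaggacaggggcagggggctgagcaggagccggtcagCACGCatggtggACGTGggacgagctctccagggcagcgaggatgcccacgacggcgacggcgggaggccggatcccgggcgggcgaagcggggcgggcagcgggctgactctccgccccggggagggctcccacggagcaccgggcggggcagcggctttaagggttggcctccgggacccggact
Igfbp4 (chr11:99040994-99041243, plus strand): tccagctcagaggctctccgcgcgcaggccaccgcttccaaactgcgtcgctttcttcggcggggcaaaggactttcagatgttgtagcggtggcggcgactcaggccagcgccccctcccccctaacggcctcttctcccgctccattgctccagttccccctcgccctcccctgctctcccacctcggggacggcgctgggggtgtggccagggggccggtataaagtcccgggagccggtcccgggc
The letters occurred at 2 places before Igfbp3, at 2 before Igfbp7, and at 0 before Igfbp5 and Igfbp4. They lay -188 and -55 bases from the start of Igfbp3 and -187 and -175 bases from that of Igfbp7, counted to the leftmost base of the match. Of 32851 windows of the same length before RefSeq starts, 38.6% held at least 1 of the 2 motifs, so such a match is common, and it is a description of letters and not a binding site. The TATAAA letters were found before Igfbp4, -28 bases from its start, and on the other strand before Igfbp6, -148 bases from its start. Of all windows 12.4% held them on either strand. Igf1r had 3 matches to GCGTG, Igf1 had 1 and Igfbp6 had 0.

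On GRCm38 (GENCODE M21), Igf1 lies on chr10:87858265-87937042 and Igf1r on chr7:67952827-68233668. Igfbp5 lies on chr1:72857932-72874884, Igfbp7 on chr5:77349240-77408041, Igfbp6 on chr15:102144362-102149511, and Igfbp3 (chr11:7206086-7213923) and Igfbp4 (chr11:99041244-99054392) are both on chromosome 11. Values are of whole genes, summed over all exons. Igf1 shares 5117 bases with the antisense gene Igf1os, and Igfbp7 shares 85 bases with Polr2b on the other strand and 7085 bases with the antisense gene Gm34648. The strand setting of the counting is not given in the sources used here, so reads from such partners cannot be told apart from those of the member.

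In the libraries labelled KO, set against C, 3 of the 7 members rose and 0 fell: Igfbp3, Igfbp5 and Igfbp7. They were 3.18-fold, 3.09-fold and 2.21-fold higher. Over all 13544 genes tested, 13.9% passed in either direction and 6.90% as higher. The ligand Igf1, the receptor gene Igf1r, Igfbp4 and Igfbp6 did not pass. In DKO against C 0 members passed, and in DKO against KO Igfbp5 alone passed, as lower. Levels are in units of the deposited signal, reads on a CPM scale over a scaled library size, and a change passed where limma gave a Benjamini-Hochberg adjusted p under 0.05 over all genes tested.

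**Figure D1:**
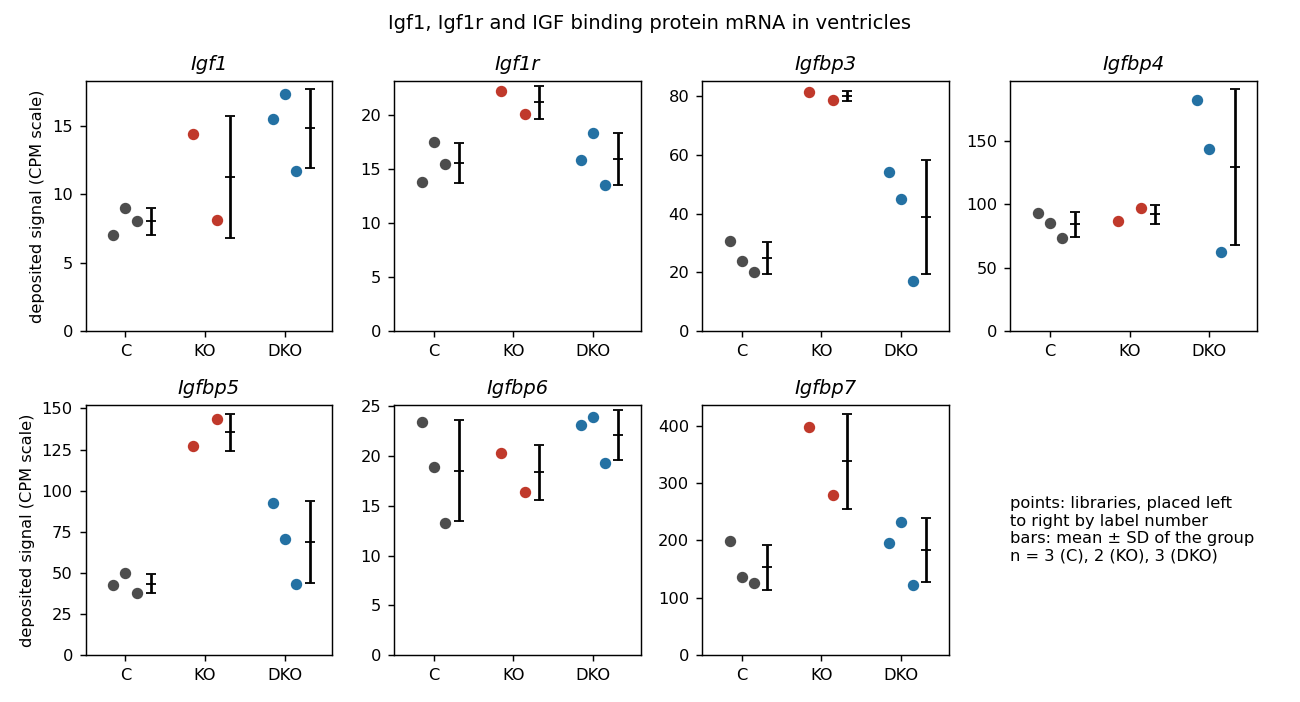
Deposited signal (vertical axes, linear from 0, CPM scale) of the 7 members in every library, with mean ± SD of each group. Igfbp3, Igfbp5 and Igfbp7 of both KO libraries lie above all C and DKO libraries, while DKO 3 is the lowest DKO library in each panel.

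Across the whole series the libraries held 15028176 to 21202385 reads. The scaling factor of the deposited values lay between 1.36 and 1.37 for the KO libraries, between 0.925 and 0.964 for C and between 0.705 and 1.06 for DKO. Mitochondrial transcripts took 23.1% to 29.0% of reads in C, 16.2% and 17.4% in KO and 22.9% to 41.6% in DKO, with the highest share in DKO 2. The level of Vhl itself ranged over 7.26 to 8.97 in C, 8.33 and 8.96 in KO and 8.61 to 11.2 in DKO, and no comparison passed for it (limma, adjusted p = 0.46 to 0.71), so this whole-gene level did not check the labels. All 9 ventricular cardiomyocyte markers were detected in all 8 libraries. Their summed level was 57179 to 59676 in C, 31326 and 35023 in KO and 35333 to 56371 in DKO. In KO against C 1 of the 9, Tnni3, passed as lower (limma, adjusted p = 0.0211), where 7.01% of all genes did. Ttn went the other way, with 1286 ± 164 in C and 1529 ± 85.3 in KO, and did not pass. The summed level of 6 skeletal muscle markers, a tissue not meant to be sampled, was 53.5 to 384.0 in C, 0.624 and 1.06 in KO and 2.77 to 12.2 in DKO. That of 3 atrial cardiomyocyte markers differed widely inside each group. It was 15.5, 134.8 and 4.54 in C, 63.8 and 3.55 in KO 1 and KO 3, and 40.5, 18.4 and 2.79 in DKO. The part of either tissue in the differences was not tested. In bulk tissue a change in the number of cells of a type and a change in RNA per cell cannot be told apart.

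Within C, levels per kilobase of the longest annotated transcript put Igfbp7 far ahead of the rest of the family, at 127.7 ± 32.7 (SD, n = 3) signal per kb. Igfbp4 followed at 22.0 ± 2.61 and Igfbp6 at 16.7 ± 4.55, whose libraries overlapped with each other. Igfbp3 had 10.3 ± 2.22 signal per kb, overlapping with Igfbp6, and Igfbp5 had 7.21 ± 0.985. The receptor gene Igf1r (1.36 ± 0.162 signal per kb) and the ligand gene Igf1 (1.14 ± 0.142) came last and overlapped. In KO the order differed from C in that Igfbp3, with 33.1 ± 0.762 signal per kb (n = 2), stood above Igfbp4 with 24.1 ± 1.94, and Igfbp3 and Igfbp5, with 22.6 ± 1.89, stood above Igfbp6 with 16.5 ± 2.51. The libraries of Igfbp4 and Igfbp5 overlapped there, and those of Igfbp3 did not overlap with either. Annotated transcripts differ in length, most of all for Igf1 with 8 of them, so these per-length levels are approximate.

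Igfbp3, the gene of the main serum carrier, had a signal of 30.7, 23.8 and 20.1 in the C libraries, 81.4 and 78.8 in KO, and 54.4, 45.0 and 17.3 in DKO. Both KO libraries were higher than every other library, and DKO 1 and DKO 2 were higher than all of C while DKO 3 was lower than all of C. KO exceeded C by a log2 difference of 1.67 ± 0.37 (SE), with an adjusted p of 0.0116 in limma. With only KO 1 or only KO 3 in the group the difference kept its size, 1.69 and 1.65, but did not pass (adjusted p = 0.0911 and 0.0778, limma). The lone library is then assumed to vary like the other groups.

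Igfbp5, whose protein attaches to matrix, had a signal of 42.5, 49.6 and 37.9 in C, 127.4 and 143.5 in KO, and 92.6, 70.3 and 43.2 in DKO. The KO libraries again did not overlap with C or with DKO, and DKO 3 lay within the range of C. KO exceeded C by a log2 difference of 1.63 ± 0.26 (SE), with an adjusted p of 0.00255 in limma. The rise passed under all 19 alternatives, leaving out any 1 library included (adjusted p = 6.72e-05 to 0.0385).

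Igfbp7, the low-affinity relative of vessel walls, had a signal of 198.2, 135.5 and 126.1 in C, 397.1 and 279.4 in KO, and 194.7, 232.0 and 122.6 in DKO. Its KO libraries were the highest of the 8 but differed from each other by more than those of Igfbp3 or Igfbp5. KO exceeded C by a log2 difference of 1.14 ± 0.28 (SE), with an adjusted p of 0.02 in limma. The call ended without C 2 (adjusted p = 0.0701), C 3 (0.0805), KO 1 (0.173) or KO 3 (0.0624).

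Igfbp4, the inhibitory member, had a signal of 93.5, 85.5 and 73.6 in C, 86.9 and 97.5 in KO, and 182.4, 143.7 and 62.4 in DKO. Its C and KO libraries overlapped, and the difference was 0.13 on the log2 scale with a 95% interval from -0.61 to 0.88 (limma, adjusted p = 0.83). In DKO it spread widely, with DKO 1 and DKO 2 as the highest libraries of the series and DKO 3 as the lowest.

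Igfbp6, the carrier that prefers IGF2, had a signal of 23.4, 18.9 and 13.3 in C, 20.3 and 16.4 in KO, and 23.1, 23.9 and 19.3 in DKO. All 3 groups overlapped. The difference between KO and C was, as a log2 value, 0.01 (95% interval -0.46 to 0.49, limma, adjusted p = 0.98), and its sign turned under several settings.

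Igf1, the ligand, had a signal of 7.01, 9.01 and 8.06 in C, 14.4 and 8.10 in KO, and 15.5, 17.3 and 11.7 in DKO. The KO libraries disagreed, with KO 3 inside the range of C. All 3 DKO libraries were higher than all 3 of C, including DKO 3, which was low for most other members. DKO exceeded C by a log2 difference of 0.80 ± 0.21 (SE), which did not pass over all genes (limma, adjusted p = 0.41, unadjusted p = 0.00282). Between KO and C it was 0.40 with a 95% interval from -0.12 to 0.92 (limma, adjusted p = 0.30).

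Igf1r, the receptor gene, had a signal of 13.7, 17.4 and 15.5 in C, 22.2 and 20.1 in KO, and 15.8, 18.4 and 13.5 in DKO. Both KO libraries were higher than the other 6, but the log2 difference from C, 0.42 ± 0.18 (SE), did not pass (limma, adjusted p = 0.13). Between DKO and C it was 0.03 with a 95% interval from -0.32 to 0.37 (limma, adjusted p = 0.97), and its sign turned under several settings.

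**Figure D2:**
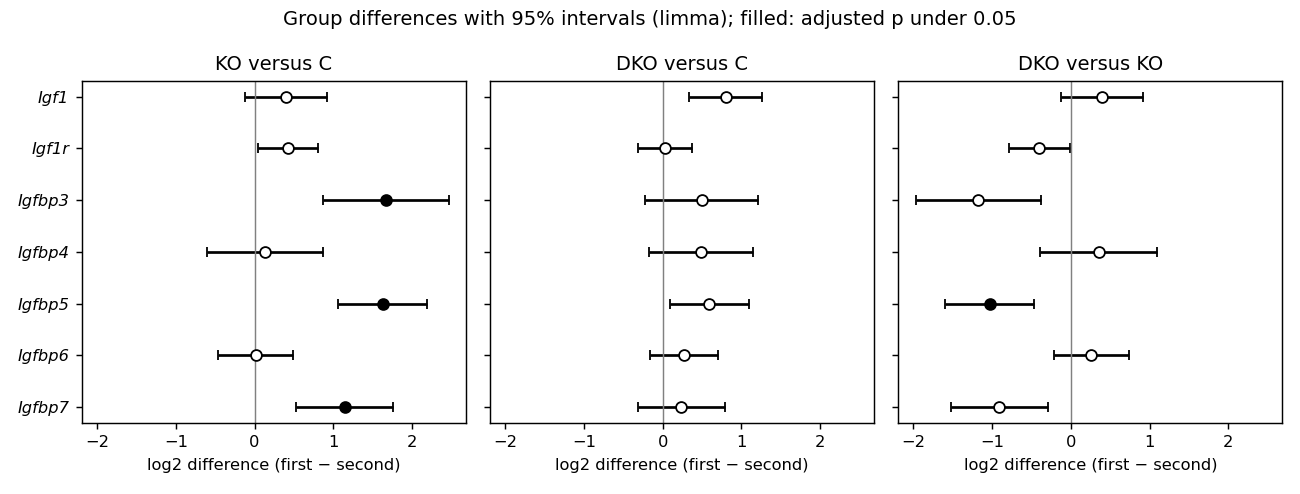
Log2 differences between groups (horizontal axis, first minus second group) with 95% intervals for each member, filled where the limma adjusted p was under 0.05. Igfbp3, Igfbp5 and Igfbp7 passed in KO versus C, 0 members in DKO versus C, and Igfbp5 in DKO versus KO.

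The libraries of KO lay wholly above those of C for 4 members (Igf1r, Igfbp3, Igfbp5 and Igfbp7), where 27.5% of all genes tested did so. They lay wholly below for 0 members, where 26.7% of all genes did. The median log2 difference of the 7 members was 0.42 against 0.01 over all genes tested. The deposited scaling bears on these sizes: in CPM of the table total, that is without the scaling factor and chosen after seeing the data, the median of all genes was 0.48 higher in KO than in C. Relative to that shift Igfbp3 was 1.72, Igfbp5 1.68 and Igfbp7 1.20 higher, and Igf1r 0.46 and Igf1 0.41. Under that scaling 5 members passed, with Igf1 (limma, adjusted p = 0.017) and Igf1r (limma, adjusted p = 0.00616) added. There 34% of all genes tested were called higher in KO, against 6.90% with the deposited scaling. Of all called genes 95.9% were higher in KO, against 49.6% with the deposited scaling.

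Ratios of members within a library do not depend on the scaling, and the following were chosen after their values were seen, as a description. The ratio of Igfbp3 to Igfbp4 signal was 0.329, 0.278 and 0.273 in C, 0.937 and 0.809 in KO, and 0.298, 0.313 and 0.277 in DKO. The DKO libraries were thus within the range of C although their levels of both genes spread widely. The ratio of Igfbp5 to Igfbp4 was 0.454 to 0.581 in C, 1.47 in both KO libraries and 0.489 to 0.693 in DKO. That of Igfbp7 to Igfbp4 was 1.58 to 2.12 in C, 4.57 and 2.87 in KO and 1.07 to 1.97 in DKO. The ratio of Igf1 to Igf1r signal was 0.510, 0.516 and 0.521 in C, 0.649 and 0.403 in KO, and 0.980, 0.943 and 0.864 in DKO. Here DKO stood apart from C, and KO lay on both sides of C.

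**Figure D3:**
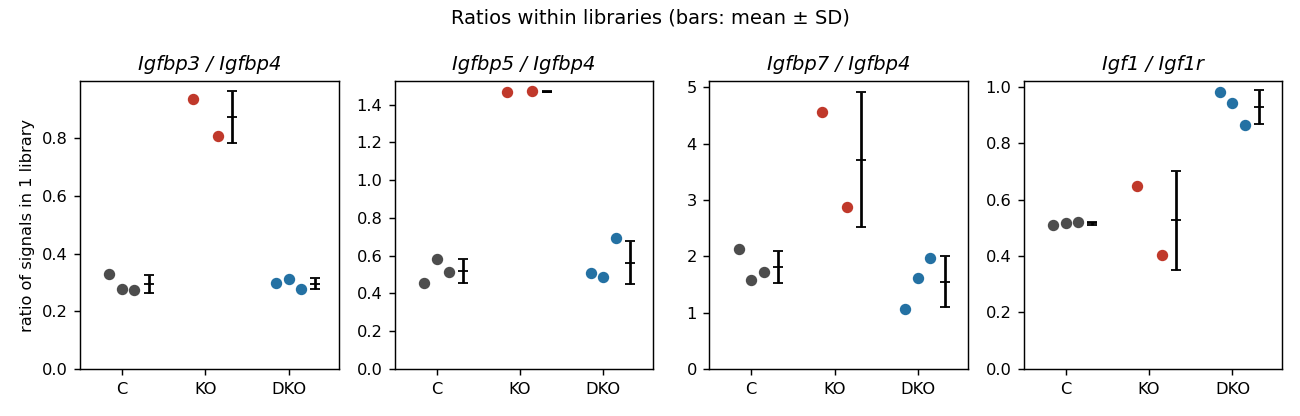
Ratios of the signals of member pairs within each library (vertical axes, linear from 0), with mean ± SD by group. The 3 ratios over Igfbp4 are high in both KO libraries, and the ratio of Igf1 to Igf1r is 0.864 to 0.980 in DKO against 0.510 to 0.521 in C.

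Taken per kilobase, the 5 measured binding proteins summed to 230.4, 170.3 and 150.9 signal per kb in C, 426.7 and 329.5 in KO, and 268.6, 282.6 and 150.1 in DKO. Igfbp7 made up 66.3% to 71.7% of this sum in C, 77.5% and 70.7% in KO and 60.4% to 68.4% in DKO. The share of Igfbp3 was 5.50% to 5.77% in C and 7.88% and 9.88% in KO, and that of Igfbp4 was 10.6% to 13.1% in C and 5.32% and 7.72% in KO. The sum over the Igf1 level per kb was 132.0 to 231.8 in C, 208.6 and 287.0 in KO and 90.7 to 122.1 in DKO. It was lower in all 3 DKO libraries than in any other library.

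In DKO against C 0 of 7 members passed in limma and 0 in edgeR, while 2 (Igf1 and Igfbp5) had an unadjusted p under 0.05. Over all genes 0.155% passed, 0.0738% as higher and 0.0812% as lower. Groups did not overlap for Igf1, as higher in DKO, where 6.50% of all genes were, and 0 members lay wholly below, where 7.25% did. Without DKO 3, chosen for omission as one of all libraries in turn, Igfbp3 (log2 difference 0.98, adjusted p = 0.04 in limma) and Igfbp4 (log2 difference 0.94, adjusted p = 0.0355 in limma) passed as higher, and 90 genes passed in all against 21. For Igfbp3 and Igfbp5, the 95% intervals of DKO against C, from -0.22 to 1.21 and from 0.09 to 1.10, reach from about no difference to more than 1 on the log2 scale.

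In DKO against KO, Igfbp5 fell by 1.03 on the log2 scale (SE 0.26, limma, adjusted p = 0.0251), where 11.8% of all genes passed, 5.73% as lower and 6.08% as higher. The comparison shares the KO libraries with that of KO and C. The call ended without KO 1 (adjusted p = 0.0979), without KO 3 (adjusted p = 0.189) and with only the groups compared in the fit (adjusted p = 0.0669). Igfbp3, with a log2 difference of -1.17 ± 0.37 (SE), and Igfbp7, with -0.91 ± 0.28 (SE), did not pass (limma, adjusted p = 0.0583 and 0.0581). Igfbp3 passed as lower under 6 of 19 alternatives, among them the omission of any 1 DKO library (adjusted p = 0.0177 to 0.05), and Igfbp7 under 5, among them the omission of DKO 2 (adjusted p = 0.0225) and the removal of a length and GC trend (adjusted p = 0.0209). Both were lower in every DKO library than in either KO library, as were Igf1r and Igfbp5, where 21.1% of all genes were. Igf1, Igfbp4 and Igfbp6 had positive differences of 0.40, 0.35 and 0.26 that did not pass (limma, adjusted p = 0.29, 0.53 and 0.47). Without the scaling factor these 3 signs turned, to -0.21, -0.30 and -0.37, while the median of all genes moved to -0.57.

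By the root-mean-square difference of centred log2 values over the 8 libraries, among 12552 named genes, the pattern of Igfbp3 was most like those of the collagen genes Col1a2 (0.16) and Col1a1 (0.17) and of Fbln5 (0.19), the gene of an elastic fibre protein. The median gene was 0.81 away. Col1a2 had 76.8, 61.5 and 47.8 in C, 197.4 and 174.4 in KO, and 118.2, 101.5 and 55.3 in DKO. The genes nearest to Igfbp5 were Adamts2 (0.14), a procollagen-processing protease gene, Bgn (0.17), of the matrix proteoglycan biglycan, and Fn1 (0.17), of fibronectin. Those nearest to Igfbp7 were Mmp14 (0.06), of a membrane-bound metalloproteinase, Baalc (0.13), which is low, and Mcam (0.13), of a cell adhesion molecule of vessel walls. Mmp14 had a signal of 19.1, 13.7 and 12.3 in C, 41.3 and 29.2 in KO, and 21.8, 24.5 and 11.4 in DKO. Igfbp5 was the 6th nearest gene to Igfbp3 (0.24), and Igfbp7 the 38th (0.34), while Igfbp4 was the 2131st (0.67). These are descriptions over libraries that share their group structure.

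Markers of cell types other than cardiomyocytes were read beside these patterns, and the lists differed. The summed signal of 8 fibroblast markers was 395.2 to 618.7 in C, 1041 and 809.0 in KO, and 982.5, 736.5 and 426.7 in DKO 1, DKO 2 and DKO 3. In KO against C 3 of the 8 rose (Col1a1, Col1a2 and Mfap5) and 0 fell, and Col1a1 and Col1a2 are also the genes nearest to Igfbp3. Beside this and the marker counts below, 6.90% of all genes tested rose in KO against C and 7.01% fell. Pdgfra, a defining gene of fibroblasts, stood at 16.9 ± 0.965 in KO against 21.7 ± 2.43 in C, and Dpt at 46.4 ± 8.47 against 64.0 ± 5.71, neither of which passed (limma, adjusted p = 0.28 for each). Of 9 epicardial markers 6 had a row, and 3 (Wt1, Krt19 and Aldh1a2) rose, with sums of 8.84 to 14.3 in C, 29.5 and 31.7 in KO and 10.4 to 17.6 in DKO. Tbx18, Msln and Upk3b did not pass (limma, adjusted p = 0.33, 0.79 and 0.77). Upk3b had a lower mean in KO, 0.680 ± 0.878 against 0.979 ± 1.06 in C. Msln and Krt19 each had at least 1 library at 0 reads. The 7 endothelial markers had sums of 691.7 to 949.8 in C, 771.7 and 706.0 in KO and 615.8 to 1062 in DKO, and 0 of them passed in KO against C (limma, 1 at an unadjusted p under 0.05). The 8 mural cell markers had sums of 643.6 to 745.2 in C, 904.6 and 826.1 in KO and 970.3, 964.4 and 678.0 in DKO, with 1 (Cspg4) higher in KO against C. The mural markers Kcnj8 and Myh11 had lower means in KO than in C and did not pass. The highest mural sums were those of DKO 1 and DKO 2, and the endothelial sums of KO lay inside the range of C. The 8 macrophage markers, of a cell type that makes IGF1, had sums of 176.2 to 193.2 in C, 241.7 and 253.1 in KO and 189.2 to 243.3 in DKO, with 1 (C1qb) higher in KO. The part of these cell types in the changes of the members was not tested.

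**Figure D4:**
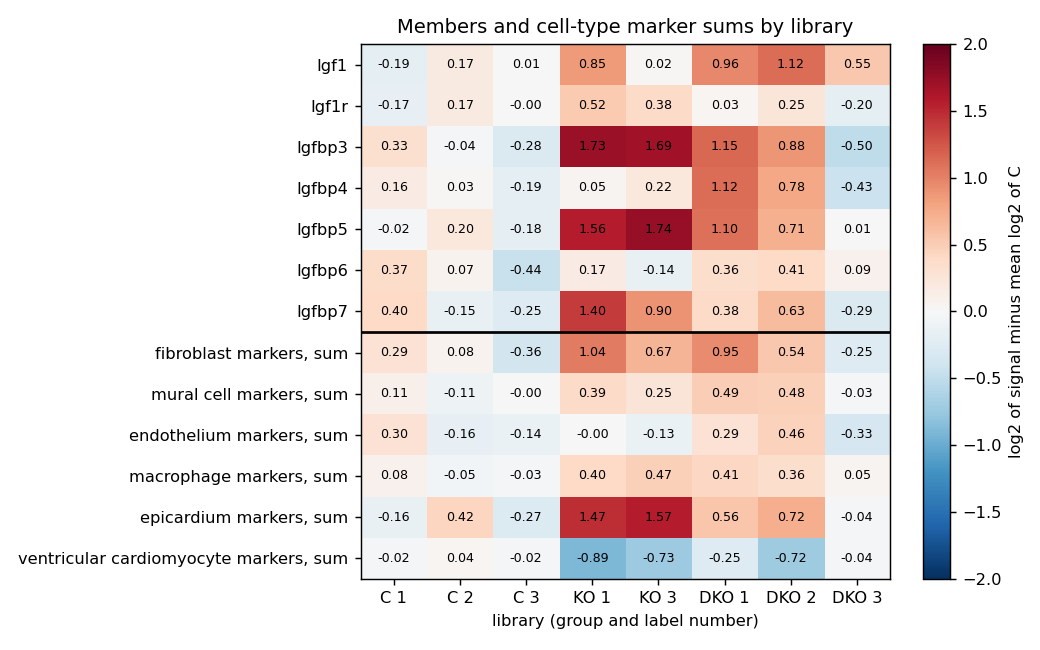
Log2 of the signal minus the mean log2 of C (colour and number), for the 7 members above the line and the summed markers of 6 cell types below it, by library. Igfbp3 stands at 1.73 and 1.69 in KO, and the fibroblast sum at 1.04 and 0.67, while DKO 3 is below the mean of C for both.

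The wider IGF pathway was read from 5 lists of named genes. Of the other ligands, receptors and carriers, 4 of 7 had a row, and 0 passed in KO against C (limma, and 0 in edgeR, 1 at an unadjusted p under 0.05, with 0 rises and 1 fall without DKO 3). Igf2, the fetal growth ligand, had 57.8, 36.4 and 44.9 in C, 15.5 and 26.6 in KO, and 130.4, 87.7 and 32.1 in DKO, and was higher in DKO than in KO (log2 difference 1.77, adjusted p = 0.0259 in limma). That call ended without DKO 2 (adjusted p = 0.0587), KO 1 (0.196) or KO 3 (0.0856). Insr, the insulin receptor gene, had 60.1, 64.3 and 68.0 in C, 80.7 and 80.8 in KO, and 43.3, 39.1 and 59.7 in DKO, and was lower in DKO than in KO (limma, adjusted p = 0.019; adjusted p = 0.104 without KO 1 and 0.132 without KO 3).

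Among the IGFBP proteases and stanniocalcins 5 of 8 were tested. Of these, 4 rose in KO against C and 0 fell, with a median log2 difference of 0.87, where 6.90% of all genes rose. Stc1 and Stc2, whose proteins inhibit the protease that cleaves IGFBP4, went from 1.23 ± 0.365 to 5.55 ± 0.0287 (limma, adjusted p = 0.00884) and from 9.22 ± 1.55 to 17.5 ± 1.43 (limma, adjusted p = 0.012). Adam9, a membrane metalloproteinase gene, went from 18.0 ± 1.58 to 35.2 ± 2.05 (limma, adjusted p = 0.003). Adam12 rose as well, at a level of 1.01 ± 0.0735 in C and 2.57 ± 0.674 in KO. This call (adjusted p = 0.0321 in limma) ended under 7 of 18 alternatives, among them the omission of any C or KO library. The serine protease gene Htra1 was 69.3 ± 3.23 in C and 66.0 ± 14.7 in KO and did not pass. The same 4 genes were lower in DKO than in KO, a comparison with the same KO libraries, where 5.73% of all genes were lower. The count of rises was 2 without C 1, where 3.53% of all genes rose. The calls of Stc2 (limma, adjusted p = 0.0543) and Adam12 ended there. Leaving out KO 1 or KO 3 leaves 1 KO library, so only sizes are given. The median log2 difference was then 0.94 and 0.87 in KO against C, and -0.96 and -0.84 in DKO against KO. These medians do not show how many calls hold.

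Of 10 other genes with an IGFBP domain 7 rose in KO and 0 fell, with a median log2 difference of 0.84, where 6.90% of all genes rose. Ccn2, of connective tissue growth factor, went from 52.1 ± 14.1 to 186.1 ± 9.42 (limma, adjusted p = 0.000645), Ccn5 from 4.57 ± 0.756 to 20.8 ± 7.79 (limma, adjusted p = 0.00101) and Esm1, of the endothelial proteoglycan endocan, from 0.949, 0.934 and 2.01 to 10.4 and 4.97 (limma, adjusted p = 0.00282). These calls and that of Ccn4 held with any 1 C or DKO library left out. Ccn1, Ccn3 and Crim1 also rose but ended without some library. The count of 7 was 4 without C 3, where 3.51% of all genes rose. In DKO against KO 5 of the 10 were lower, with Ccn2 at 43.6 ± 7.76 in DKO, where 5.73% of all genes were lower. Leaving out KO 1 or KO 3 leaves 1 KO library, so only sizes are given. The median log2 difference was then 0.81 and 1.10 in KO against C, and -0.85 and -1.14 in DKO against KO. These medians do not show how many calls hold.

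Below the receptor 7 of 39 signalling genes rose in KO against C and 0 fell, with a median log2 difference of 0.17, where 6.90% of all genes rose. Without DKO 2, or with only the groups compared in the fit, 9 rose and 2 fell. Of all genes tested 10.7% and 13.3% rose under these 2 settings, and 11.2% and 13.3% fell. Irs1, a docking protein gene of the receptor, went from 2.15 ± 0.424 to 5.84 ± 0.936 (limma, adjusted p = 0.00559), and ended without KO 3 (adjusted p = 0.0861). Pdpk1, of the kinase that phosphorylates AKT, went from 14.1 ± 0.445 to 23.6 ± 3.31 (limma, adjusted p = 0.0144), and Map2k1, of MEK1, from 22.3 ± 3.37 to 36.4 ± 4.12 (limma, adjusted p = 0.0278). The call of Pdpk1 ended without KO 3 (adjusted p = 0.164), C 2 (0.0505) or C 3 (0.055), and that of Map2k1 without either KO library (adjusted p = 0.0786 and 0.223), C 1 (0.11) or C 3 (0.0942). The other rises were of Irs2, Grb10, Ptpn1 and Gsk3b, and each of these calls ended when any 1 C library was left out. Leaving out KO 1 or KO 3 leaves 1 KO library, so only the size is given. The median log2 difference was 0.17 in both cases, which does not show how many calls hold. The count of rises was 2, 2 and 1 without C 1, C 2 and C 3, where 3.53%, 3.95% and 3.51% of all genes rose. Without the scaling factor it was 23, where 34% of all genes tested were called higher in KO. In DKO against KO 4 of the 39 were lower (Pik3r1, Gsk3b, Grb10 and Pdpk1) and 1, Pik3r2, was higher. Of all genes tested 5.73% were lower there and 6.08% higher. The median log2 difference of the 39 was -0.24, and -0.25 with KO 1 or KO 3 left out. The rise of Pik3r2 (limma, adjusted p = 0.0497) ended under 13 of 19 alternatives, among them the omission of any C library, and its log2 difference of 0.51 was -0.13 in CPM of the table total. The fall of Pdpk1 ended under 9 of 19.

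Of 8 genes of growth hormone receptor signalling 2 rose in KO against C, both of them suppressors of cytokine signalling, where 6.90% of all genes rose. Socs2 went from 21.4 ± 2.91 to 42.7 ± 3.10 (limma, adjusted p = 0.0113) and Socs3 from 4.25 ± 0.686 to 16.1 ± 11.5 (limma, adjusted p = 0.024). In DKO Socs3 had a mean of 18.9 ± 7.27, with all 3 libraries above those of C and a log2 difference from C of 1.86 that did not pass (limma, adjusted p = 0.0909), beside 1.52 for KO. The call of Socs2 ended without either KO library (adjusted p = 0.0567 and 0.112) and that of Socs3 without KO 1 (adjusted p = 0.263) or any C library (adjusted p = 0.0547 to 0.0786). Ghr, the growth hormone receptor gene, had means of 54.7 ± 6.46 in KO, 65.4 ± 4.13 in C and 70.5 ± 11.1 in DKO and did not pass. In DKO against KO 1 of the 8 was lower, where 5.73% of all genes were. This was Socs2, at 22.4 ± 5.78 in DKO (log2 difference -0.93, limma, adjusted p = 0.0163). Its call in that comparison also ended without either KO library. In DKO against C 0 of the 66 genes of the 5 lists passed in limma and 0 in edgeR, while 11 had an unadjusted p under 0.05. Socs3 passed as higher there without DKO 3 (limma, adjusted p = 0.0295), KO 1 (0.0321) or KO 3 (0.0318), with only the groups compared in the fit (0.0314) and in CPM of the table total (0.0452).

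**Figure D5:**
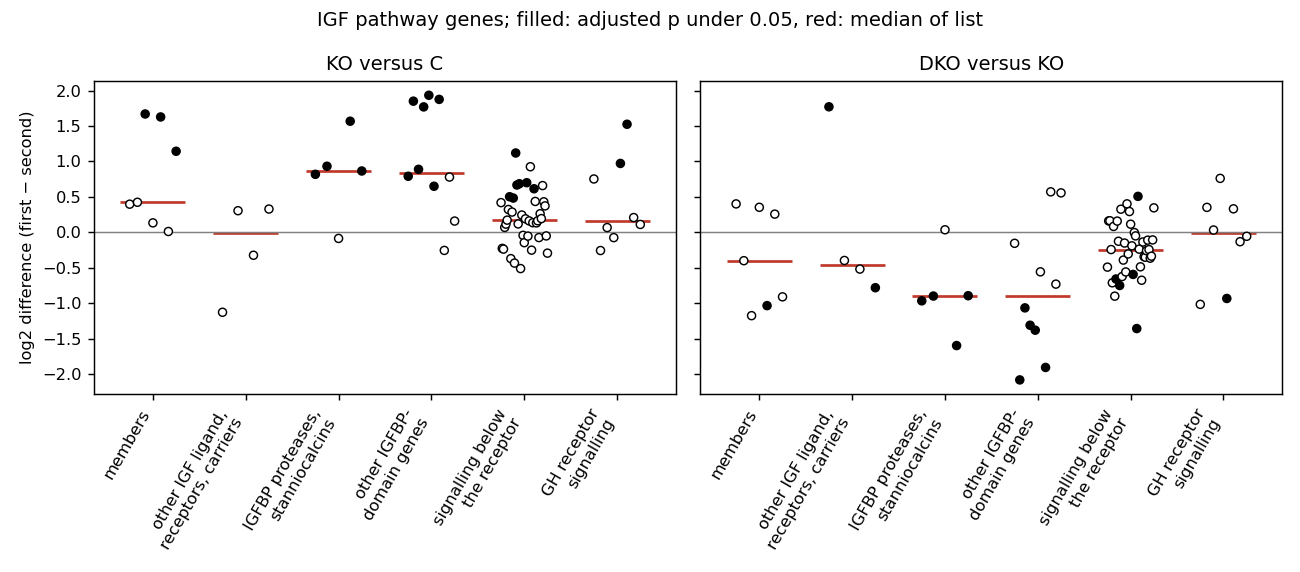
Log2 differences (vertical axis) of every gene with a row in the members and the 5 pathway lists, for KO versus C and DKO versus KO, filled where the limma adjusted p was under 0.05, with list medians as red lines. In KO versus C all filled points lie above 0, and in DKO versus KO all but Igf2 and Pik3r2 lie below.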

How the data were processed

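Poly(A) RNA was fragmented, reverse transcribed with random primers and sequenced on an Illumina instrument, per the labels' protocols. Tools named in the submitters' processing notes, without roles, are limma, cutadapt and RSEM 1.3.1, with the build GRCm38. The annotation used and the strand setting could not be learned from the labels. The deposited values are a signal in CPM units: judged by the numbers, each is a read number plus 0.5 over a scaled library size. Whole reads came out for 100% of values (tolerance 0.001 reads), and the scaling factors equalled those recomputed by TMM in edgeR. RSEM can split reads between similar genes.

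Of 13677 genes, the 13544 that reached 1 in 2 or more libraries were tested with limma 3.58.1 (R 4.3.3) on log2(value + 1), in 3 group means over 8 libraries with an intensity trend. Adjustment was by the Benjamini-Hochberg method over all genes of a comparison (threshold 0.05, two-sided). Folds come from these log2 differences and understate the change of low genes. edgeR 4.0.16 on the recovered reads was an alternative and called 2045 genes in KO against C, 25 in DKO against C and 1692 in DKO against KO. The script was tested on simulated reads. A count of 0 allows up to 3 reads, a signal of 0.104 to 0.283 (counting error only).

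Members, lists and tests were chosen with earlier results of these data known. Named genes are the members, up to 3 genes per list, direction and comparison past the threshold, and the 3 genes nearest to each called member; others among the lists are named as values or after their values were seen. Replicates differed by more than counting noise (chi-square per gene 14.8 to 391.5). Promoters are from RefSeq and loci from GENCODE M21, in which 13666 of 13677 identifiers matched.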

Additional observations from a re-analysis of the deposited data

How the results depend on the processing

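Of 21 member differences, each under 19 alternatives, 360 of 399 values kept direction and side of the threshold. A further 9 lost a call, 17 gained 1 and 13 changed sign. Some of these values could not change direction. Leaving out a library of the group not compared, fitting only the 2 groups or changing the low-value filter leaves the difference itself unchanged. The changes in sign were of differences that did not pass under the alternative either. In KO versus C, Igfbp6 was -0.033 with median centring, -0.019 with quantile normalisation, -0.012 in edgeR and -0.19 to 0.19 leaving out 1 library. In DKO versus C, Igf1r was -0.083 with the length and GC trend removed, -0.087 in CPM of the table total (chosen after seeing the data) and -0.077 to 0.131 leaving out 1 library. In DKO versus KO, Igfbp6 was -0.029 with that trend removed, and in that CPM Igf1 was -0.21, Igfbp4 -0.30 and Igfbp6 -0.37. The cause was not tested.

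The number of members that changed in KO versus C (3) was 5 in that CPM and 1 to 3 leaving out 1 library. In DKO versus C (0) it was 0 to 2 leaving out 1 library, where 0.0295% to 0.347% of all genes were called higher. The 2 came without DKO 3, where that share was 0.347%. In DKO versus KO (1) it was 0 with only the 2 groups compared, 3 with the replicate block, 2 with median centring, with quantile normalisation and with the trend removed, 4 in that CPM and 0 to 3 leaving out 1 library. Of all genes tested in DKO versus KO, 5.73% were called lower in the main fit, 2.8% with only the 2 groups compared and 4.64% with the replicate block. The share was 5.31%, 6.36% and 5.92% with median centring, quantile normalisation and the trend removed, and 44.3% in that CPM. In that CPM 34% were called higher in KO versus C. Leaving out 1 C or DKO library, 3.51% to 10.7% were called higher in KO versus C. The share called lower in DKO versus KO was then 4.13% to 6.68%. With the replicate block Igfbp3 (limma, adjusted p = 0.0335) and Igfbp7 (limma, adjusted p = 0.0266) passed in DKO versus KO besides Igfbp5. The block changed no other member's call. Among the lists the block ended the KO versus C calls of Adam12, Crim1, Irs2, Grb10, Gsk3b and Map2k1 (adjusted p = 0.0541 to 0.075), and the DKO versus KO calls of Pdpk1 (0.0748) and Pik3r2 (0.0651). Of 7 same-numbered pairs, 5 deviated together with r = 0.104 to 0.218, DKO 1 and KO 1 had r = -0.012 and C 2 and DKO 2 r = -0.27. The 2 KO libraries deviate from their mean by equal and opposite amounts, so values of r with them are not separate observations. C 1, for example, had r = 0.218 with KO 1 and -0.218 with KO 3. Not every pair was above 0.1, C 2 correlated best with DKO 1, and the labels give no shared origin, so the numbers were not taken as pairs.

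Over all genes, KO versus C (1883) gave 3606 with only the 2 groups compared, 4806 in that CPM and 449 to 2966 leaving out 1 library. DKO versus C (21) gave 4 to 90, and DKO versus KO (1599) gave 730, 6205 and 334 to 1991. In that CPM 3.32% of the calls in DKO versus KO were higher in DKO, against 51.5%. Low reads limit Igf1 most, with 1714 reads over 8 libraries.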
